A study of Mus musculus with 8 samples.

Results

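Immediate-early genes are the genes that a neuron transcribes first after it has been active. Calcium entry and growth factor signalling act through kinases on transcription factors that are already bound to DNA, chiefly CREB at cyclic AMP response elements (CRE) and SRF at CArG boxes, so that the first transcripts appear before any new protein is made. Many of them code for transcription factors of the AP-1, EGR and NR4A families, others for proteins that act at the synapse, such as Arc, or for phosphatases that switch the kinases off again. Their mRNA is short-lived and is widely used as a record of recent activity in the cortex.

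The 35 genes described here are a list of such immediate-early and activity-induced genes, found on the array by their symbols. Of these, 32 were among the 23435 genes that could be tested. Their mRNA levels in the medial prefrontal cortex (mPFC) came from 8 adult male mice of the inbred strain C3H/HeN (written C3H/Hen in the labels), with 1 single-colour Agilent array per mouse. In the 4 mice exposed to maternal separation (MS, labelled Stress), separation ran on postnatal days 2 to 14 and went along with unpredictable stress of the mother, and the 4 control mice had neither. All mice were weaned on postnatal day 21, worked in operant cages for a palatable food as adults, and were then deprived of food, anaesthetised with isoflurane and decapitated. The interval between the last operant session and death, to which transcripts of this kind are sensitive, is not stated in the sources that were read. Each mouse is called by its group and label number, such as MS 7.1 or control 8.4. The number before the point is shared by 3 MS mice and by another 3 control mice. Its meaning is not stated, and should it stand for a litter, those mice would not be independent of each other. No gene is altered and no agent was given in either group, and the mPFC was dissected as bulk tissue, so that fewer cells of a type and less RNA per cell cannot be told apart.

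A level is the log2 of the signal minus the log2 of the array's own 75th percentile, so a level of 0 is the signal that 75% of probes lie below, and a difference of 1 is a factor of 2. Each array gave a 75th percentile between 588 and 892 signal units, had 61.6% to 68.9% of its probes well above background, and had 0 saturated spots. All 10 markers of cortical excitatory neurons that were looked up were well above background on all 8 arrays. Control 8.4 stood apart from the rest, with a median correlation with the other arrays of 0.987, against 0.993 or more for each of the other 7 arrays. A score, the mean over a list of the level minus the 8-array mean, was raised for 11 olfactory bulb markers in MS 7.6 (1.18), control 8.4 (2.28) and control 8.5 (0.66), and was -0.55 or lower in the other 5 mice. The score of 11 striatal markers was 1.20 in control 8.4 and -0.07 or lower in the other 7 mice, and that of the 10 cortical markers was -0.51 in control 8.4 and between -0.03 and 0.25 elsewhere.

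Of the 35 genes, 32 were tested, each well above background on all 8 arrays. The other 3 were too dim to test. Fosl1 was above background on 0 arrays, and Nr4a3 and Dusp5 each on 3 arrays of each group. The stretch of DNA just before the start site, where CREB and SRF commonly bind at such genes, is shown for 5 of them, since the genes were compared below for how closely they follow Fos. The RefSeq promoter table (GRCm38.p6) matched 27 of the 35, and the 250 bases upstream of each start site were searched on both strands. Capitals mark the CRE half-site (TGACG or its reverse complement CGTCA), the full CRE (TGACGTCA, which contains a half-site on each strand) and the CArG box. Fos is the gene against which the others were set (chr12:85473640-85473889, plus strand). Nr4a1, with 4 half-sites (chr15:101266596-101266845, plus strand), and Egr2 at start site 3, with a CArG box between 2 half-sites (chr10:67537619-67537868, plus strand), were the 2 genes of the rapid core defined below, among those matched, whose levels followed Fos most closely. Dusp1 (chr17:26508473-26508722, minus strand) and Btg2 (chr1:134079156-134079405, minus strand) are the rapid core genes with a full CRE. These sequences were chosen after the expression values were seen.
Fos: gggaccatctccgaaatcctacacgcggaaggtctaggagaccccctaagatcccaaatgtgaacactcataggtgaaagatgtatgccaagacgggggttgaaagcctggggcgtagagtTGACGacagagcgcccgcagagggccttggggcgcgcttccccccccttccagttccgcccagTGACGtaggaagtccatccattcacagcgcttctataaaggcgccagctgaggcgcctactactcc
Nr4a1: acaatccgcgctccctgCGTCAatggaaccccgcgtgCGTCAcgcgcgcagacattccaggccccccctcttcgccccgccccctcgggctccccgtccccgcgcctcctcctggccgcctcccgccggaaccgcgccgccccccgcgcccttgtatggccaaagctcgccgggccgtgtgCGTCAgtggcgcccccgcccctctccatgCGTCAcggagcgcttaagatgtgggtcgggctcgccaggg
Egr2: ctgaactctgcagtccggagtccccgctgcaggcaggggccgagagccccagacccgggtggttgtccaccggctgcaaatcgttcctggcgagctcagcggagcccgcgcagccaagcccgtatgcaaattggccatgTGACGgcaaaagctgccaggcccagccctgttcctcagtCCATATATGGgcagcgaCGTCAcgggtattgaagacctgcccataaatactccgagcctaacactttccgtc
Dusp1: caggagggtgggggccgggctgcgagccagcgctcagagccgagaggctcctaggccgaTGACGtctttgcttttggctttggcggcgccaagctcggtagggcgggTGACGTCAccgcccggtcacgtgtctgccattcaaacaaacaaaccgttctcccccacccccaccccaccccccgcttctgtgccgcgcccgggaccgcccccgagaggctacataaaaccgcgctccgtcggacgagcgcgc
Btg2: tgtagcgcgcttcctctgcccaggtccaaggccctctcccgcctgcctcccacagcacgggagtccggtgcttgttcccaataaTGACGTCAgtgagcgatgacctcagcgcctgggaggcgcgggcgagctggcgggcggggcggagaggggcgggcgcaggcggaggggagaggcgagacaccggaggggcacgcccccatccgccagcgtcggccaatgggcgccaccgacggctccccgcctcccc

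A CRE half-site lay in this window in 16 of the 27 matched genes (59.3%), among them all 9 matched genes of the rapid core, against 19.8% of 27025 genes in the table. The full CRE was found in 3 of the 27 genes, those of Dusp1, Btg2 and Maff, against 1.77% of all genes, and a CArG box in 2, Egr2 and Dusp5, against 1.62%. The AP-1 site (TGACTCA or TGAGTCA) was found in 0 of 27 windows, against 5.16% of all genes, and the TATA box (TATAAA) in 6 of 27, against 14.3%. A match is a run of letters and not a shown binding site. Bases farther upstream were not searched, so a gene with no match here may hold a site elsewhere. Egr1, Arc and Ier2 of the rapid core were not among the matched genes.

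The comparison of MS with control mice asks whether separation in infancy leaves a difference in the adult level of these genes. No gene of the list passed the test. The share of all tested genes that passed was 0%, since 0 of 34098 probes had an adjusted p under 0.05 in limma, and the adjusted p of the 32 genes was 0.9996 or 1. The level was higher in MS mice for 20 of the 32 genes (62.5%) and lower for 12, against 54.5% higher over all tested genes. The median difference, MS minus control, was 0.12 over the 32 genes and 0.01 over all genes. Several lists of tissue markers were also one-sided between the groups, and 0 of the markers passed the test. Markers of cortical excitatory neurons were higher in MS for 10 of 10 genes (median 0.19), while those of the striatum (median -0.27) and the olfactory bulb (median -0.57) were each lower in MS for 10 of the 11 tested. The striatal and cortical differences rest mainly on control 8.4, with scores of 1.20 and -0.51. The other mice were at -0.07 or lower for the striatal and between -0.03 and 0.25 for the cortical list. Control 8.4 was also the highest mouse for the olfactory bulb list, at 2.28. The other controls were there at -0.87, -0.88 and 0.66, against -0.96, -0.55, -0.85 and 1.18 in MS mice. Myelin markers were lower in MS for 9 of 10 genes and those of meninges, mural cells and fibroblasts for 8 of 10. For the myelin list control 8.4 was again the highest, at 0.35. The other controls were at -0.17, -0.06 and 0.01, and MS mice at -0.18, 0.11, 0.01 and -0.06. Microglial markers were higher in MS for 8 of 10. The part of tissue markers in the differences of the list was not tested. At an unadjusted limma p under 0.05 there was 1 of the 32 genes, against 1.93% of all genes, and in 1 of the 32 the groups did not overlap, against 1.33% of all genes. Both times the gene was Gadd45a. At the brightest probe, the 95% confidence interval of the difference lay within ±1 for 30 of the 32 genes and within ±0.5 for 11. A change by a factor of 2 thus lay outside that interval for all but Egr2 and Nr4a2. The second probe of Ier5 had an interval of 0.12 to 1.34, which holds such a change.

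**Figure D1:**
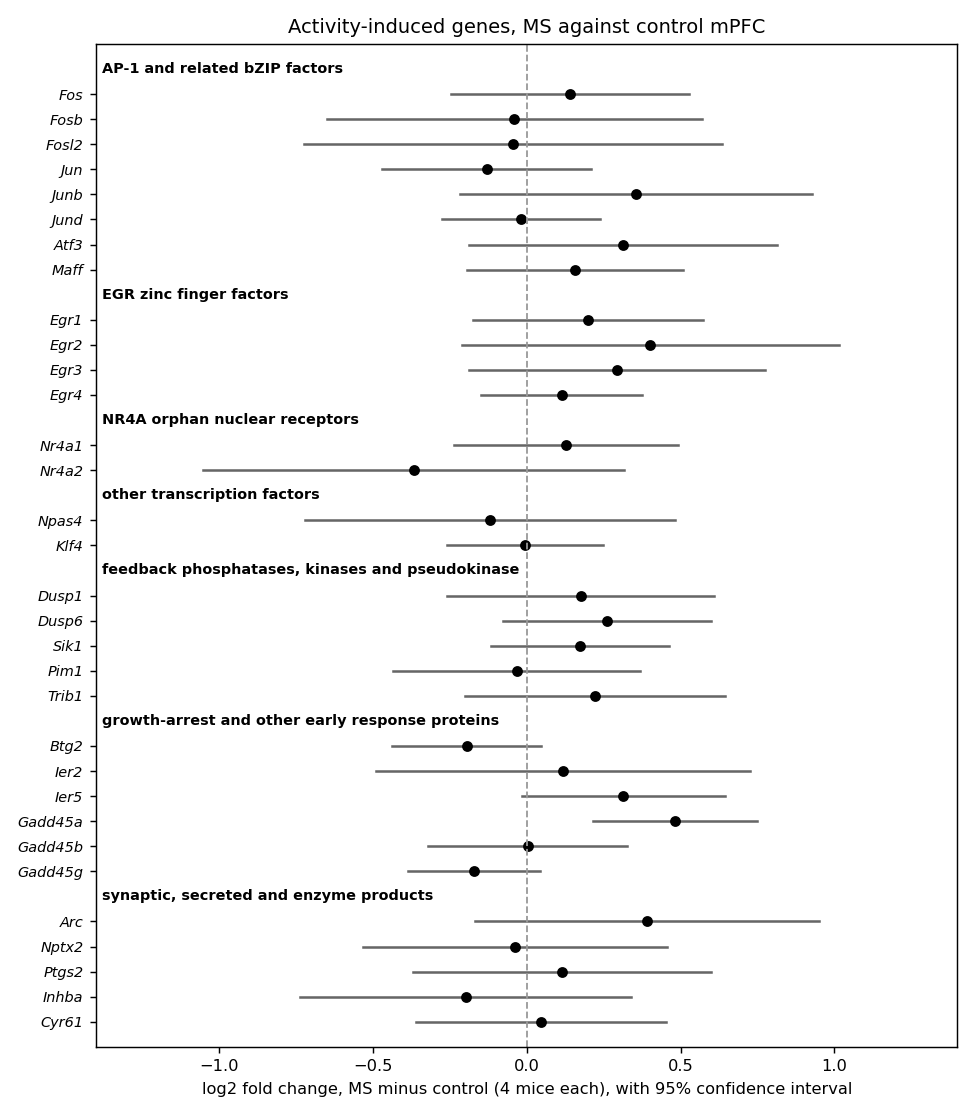
Difference in level between MS and control mPFC (horizontal axis, log2, MS minus control, 4 mice each) for the 32 tested genes, grouped by what they code for. Points are the limma estimates and bars their 95% confidence intervals. The interval of Gadd45a (0.22 to 0.75) is the only one that does not cross 0.

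AP-1 is the dimer of a Fos and a Jun protein. The 9 genes of this and related leucine zipper families on the list were divided, with 4 higher and 4 lower in MS among the 8 tested and differences between -0.13 (Jun) and 0.35 (Junb). Fos, the gene most used as a mark of recent activity (probe on mm9 chr12:86817900-86817959), had levels of 0.34, 0.30, 0.70 and 0.53 in MS 5.3, 7.1, 7.2 and 7.6, against 0.10, 0.82, 0.14 and 0.25 in control 6.2, 8.2, 8.4 and 8.5. The 4 MS mice lay inside the range of the controls, of which 8.2 was the highest of all 8 mice and the other 3 were below every MS mouse. The means were 0.47 ± 0.19 in MS and 0.33 ± 0.33 in control mice (SD, n = 4 each), a difference of 0.14 with an interval of -0.25 to 0.53. Values below are given for the mice in this same order.

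Fosb codes for a partner of Jun whose truncated product, deltaFosB, is known to build up with repeated stimulation. Its levels were 0.90, 0.14, 0.32 and 1.18 in MS mice, against 0.24, 1.07, 0.43 and 0.95 in controls, a difference of -0.04 (-0.65 to 0.57). Each group held 2 high and 2 low mice for this gene. Fosl2, a slower Fos relative, was at 1.20, 0.44, 0.71 and 1.54 in MS mice and at 0.29, 1.13, 1.46 and 1.19 in controls, a difference of -0.04 (-0.72 to 0.64), and a second, much dimmer probe gave -0.30. Its 2 highest mice, MS 7.6 and control 8.4, were also the mice with the highest scores for olfactory bulb markers, and the part of those markers in this gene was not tested. For Junb, which codes for a Jun protein that can counter c-Jun, the levels were -2.33, -1.54, -1.84 and -2.17 in MS mice and -2.23, -1.90, -2.996 and -2.18 in controls. The difference of 0.35 (-0.22 to 0.93) was 0.13 without control 8.4, the lowest mouse. The other tested factors of the group were Atf3, a stress-induced factor, with a difference of 0.31, the small Maf gene Maff with 0.16, Jund with -0.02 and Jun with -0.13, each with an interval that contains 0.

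The EGR genes code for zinc finger factors, of which Egr1 is needed to stabilise long-term potentiation. The level was higher in MS for 4 of 4, with a median difference of 0.25, and 0 of 4 passed the test. Egr1 was at 4.51, 4.12, 4.32 and 4.50 in MS mice, against 3.86, 4.61, 4.04 and 4.15 in controls, a difference of 0.20 (-0.17 to 0.57). Egr2 was at 0.58, 0.30, 0.41 and 0.70 in MS mice, against -0.16, 0.98, -0.41 and -0.03 in controls. As for Fos, control 8.2 was above all MS mice and the other 3 controls were below all of them, and the difference was 0.40 (-0.21 to 1.02). Egr4 had 3.66, 3.35, 3.42 and 3.39 in MS mice and 3.35, 3.60, 3.18 and 3.24 in controls (difference 0.11, -0.15 to 0.38), and the dim Egr3 differed by 0.29 (-0.19 to 0.77). Without control 8.4 the difference of Egr2 was 0.23. Without the 3 arrays with raised olfactory bulb scores, the differences were 0.09 for Egr1, 0.02 for Egr2, 0.10 for Egr3 and 0.0039 for Egr4.

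Npas4 codes for a factor that is induced selectively by calcium entry and that promotes inhibitory synapses. It was at 2.77, 1.87, 2.31 and 2.54 in MS mice, against 2.31, 2.86, 1.89 and 2.91 in controls, so that the groups covered the same range (difference -0.12, -0.72 to 0.48). Klf4, a zinc finger factor, differed by -0.01 (-0.26 to 0.25). Nr4a1 and Nr4a2 code for orphan nuclear receptors. The levels of Nr4a1 were 5.39, 5.46, 5.68 and 5.75 in MS mice and 5.31, 5.89, 5.18 and 5.39 in controls, a difference of 0.13 (-0.24 to 0.49).

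Nr4a2, which dopamine neurons need to form and which is also expressed in cortex, had the widest spread of the 32 genes over the 8 mice (SD 0.50). Its levels were 0.76, 0.46, 0.48 and 0.47 in MS mice, against 0.05, 0.70, 1.68 and 1.20 in controls. The MS mice lay close together inside a control range that reached from the lowest mouse, 6.2, to the highest, 8.4. The difference was -0.37 (-1.05 to 0.32), and a second probe gave -0.39. It was -0.65 without control 6.2, with an unadjusted limma p under 0.05 that did not pass after adjustment, and -0.11 without control 8.4. Within the slide rows it was -0.020 and -0.72. Control 8.4 and control 8.5, the 2 highest, had raised scores for olfactory bulb markers (2.28 and 0.66), as had MS 7.6 (1.18), whose level of 0.47 was not raised. Without these 3 arrays the difference was 0.19, of the opposite sign. The part of these markers in the result was not tested.

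**Figure D2:**
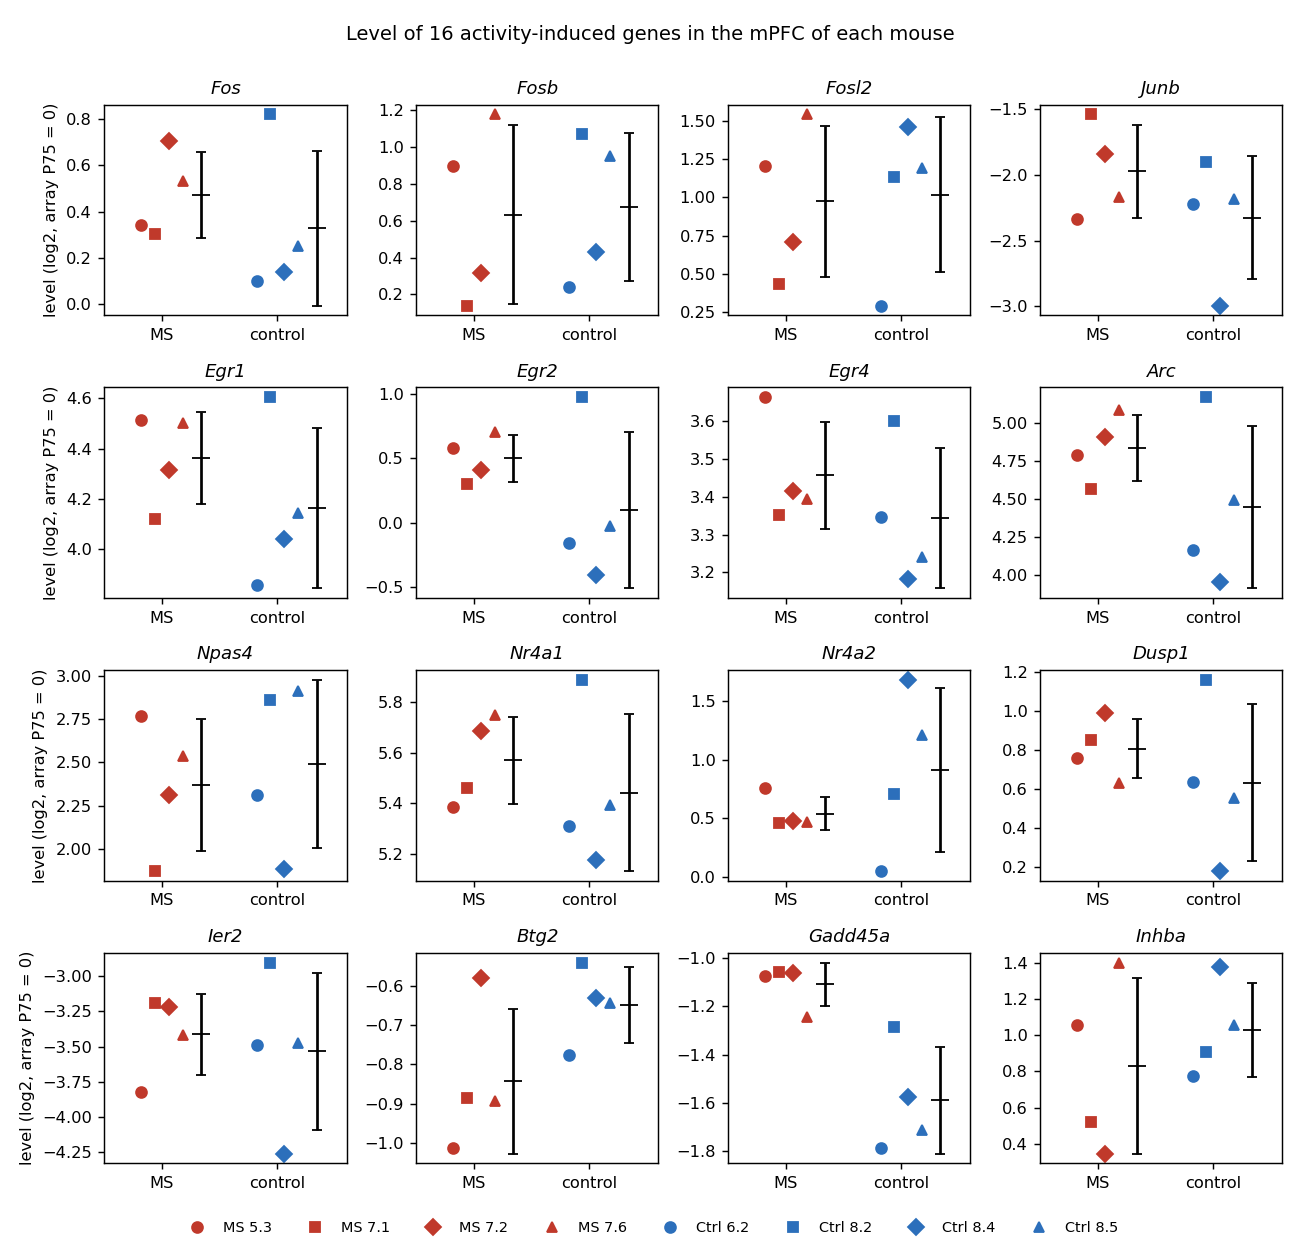
Level of 16 of the genes (vertical axis, log2 relative to the 75th percentile of the array) in each mouse, with MS on the left (red) and control on the right (blue), 1 symbol per mouse. Black lines give the mean and SD of each group. For Fos, Egr2, Arc and Nr4a1 the single control above every MS mouse is 8.2, and Gadd45a is the gene in which the groups do not overlap.

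The products that switch the kinase cascade off again include the dual-specificity phosphatases Dusp1 and Dusp6, and the kinase Sik1, which holds back CREB coactivators. The pseudokinase Trib1 and the kinase Pim1 are grouped with them. Dusp1 was at 0.76, 0.85, 0.99 and 0.63 in MS mice, against 0.64, 1.16, 0.18 and 0.55 in controls, a difference of 0.18 (-0.26 to 0.61). Of the 5 tested genes of this kind, 4 were higher in MS and 0 passed the test, with differences of 0.26 for Dusp6, 0.22 for Trib1, 0.17 for Sik1 and -0.03 for Pim1. For Dusp6 all 4 MS mice (4.02 to 4.20) lay in the upper part of the control range (3.45 to 4.22). Both well-measured probes of Trib1 gave similar differences, 0.22 and 0.25.

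Gadd45a, Gadd45b and Gadd45g code for small stress-response proteins that bind cell cycle and kinase regulators and have been linked to DNA demethylation. Gadd45a (probe on mm9 chr6:66985376-66985435) was the 1 gene on the list in which every MS mouse was above every control mouse. Its levels were -1.07, -1.06, -1.06 and -1.24 in MS mice, against -1.79, -1.28, -1.58 and -1.71 in controls. The lowest MS mouse, 7.6, and the highest control, 8.2, lay close together. With means of -1.11 ± 0.09 in MS and -1.59 ± 0.22 in control mice (SD, n = 4 each), the difference was 0.48 with a standard error of 0.12 and an interval of 0.22 to 0.75, which is 1.397-fold. The limma p was 0.00283 before adjustment and 0.9996 after it, so the gene did not pass the test. Over all tested genes, all MS mice were above all controls in 0.802%, and an unadjusted p under 0.05 with the higher level in MS was found in 0.866%. The difference was 0.49 without control 8.4 and 0.58 without control 8.2, and within the 2 slide rows, which hold 2 mice of each group, it was 0.69 and 0.28. The other family members differed by 0.00 (Gadd45b, -0.32 to 0.33) and -0.17 (Gadd45g, -0.39 to 0.04).

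Among the other early response proteins, Btg2, which codes for an antiproliferative protein, was at -1.01, -0.89, -0.58 and -0.89 in MS mice and at -0.78, -0.54, -0.63 and -0.64 in controls. The lowest 3 mice were MS mice and the fourth, MS 7.2, was among the highest, and the difference was -0.20 (-0.44 to 0.05). Ier2 was at -3.82, -3.19, -3.22 and -3.42 in MS mice and at -3.49, -2.90, -4.26 and -3.48 in controls, a difference of 0.12 (-0.49 to 0.73) that was -0.12 without control 8.4. Ier5, a regulator of the heat shock response, had 2 probes. The brighter one differed by 0.31 (-0.02 to 0.64) with an unadjusted limma p of 0.0600, and the other by 0.73 (0.12 to 1.34) with an unadjusted limma p of 0.0239, and both had an adjusted p of 0.9996. The groups overlapped on both probes.

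Arc codes for a protein of the postsynapse that removes AMPA receptors from the membrane, and its mRNA is carried into dendrites. The levels were 4.79, 4.56, 4.91 and 5.08 in MS mice, against 4.16, 5.17, 3.95 and 4.49 in controls. All 4 MS mice were above 3 of the 4 controls and below control 8.2, and the difference was 0.39 (-0.17 to 0.95). It was 0.23 without control 8.4 and 0.09 without the 3 arrays with raised olfactory bulb scores. Inhba, which codes for a subunit of activin, was at 1.06, 0.52, 0.34 and 1.402 in MS mice and at 0.78, 0.91, 1.38 and 1.06 in controls. The MS mice held both the lowest values and the highest one, and the difference was -0.20 (-0.74 to 0.34). Ptgs2, the gene of the inducible cyclooxygenase, differed by 0.11, Cyr61, the gene of a secreted matrix protein, by 0.05, and Nptx2, which codes for a pentraxin that clusters AMPA receptors, by -0.04. The dimmer probe of Nptx2 gave 0.25, and the intervals of both probes contain 0.

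Some of these genes ordered the 8 mice alike, and that order did not separate the groups. For a rapid core of 12 genes, those best known to be induced within minutes (Fos, Fosb, Junb, Egr1, Egr2, Egr4, Arc, Npas4, Nr4a1, Btg2, Dusp1 and Ier2), the mean deviation from the 8-array mean was 0.05, -0.05, 0.12 and 0.16 in MS 5.3, 7.1, 7.2 and 7.6, against -0.22, 0.41, -0.44 and -0.03 in control 6.2, 8.2, 8.4 and 8.5. The controls thus held both the highest mouse and the 2 lowest, and the MS mice lay between them. For Fos, Egr2 and Arc, control 8.2 alone was above the MS mice, and the other controls were below all of them. Control 8.2 had the highest level of all mice in 8 of the 12 core genes and in 11 of the 32 genes, while it was the highest mouse for 8.27% of all tested genes. Control 8.4 had the lowest level in 7 of the 12 and in 13 of the 32, and was the lowest mouse for 31.9% of all genes. MS 7.6 was the highest mouse for 10 of the 32 genes (10.2% of all genes) and control 6.2 the lowest for 7 (7.56%).

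The low mice differed in tissue markers. Control 8.4 had the highest scores for striatal (1.20) and olfactory bulb (2.28) markers and the lowest for cortical excitatory neurons (-0.51). Control 6.2, also low in the core, had scores of -0.19, -0.87 and 0.04 for the same 3 lists, and control 8.2, the highest, had -0.24, -0.88 and 0.15. The part of tissue markers in the order of the mice was not tested.

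**Figure D3:**
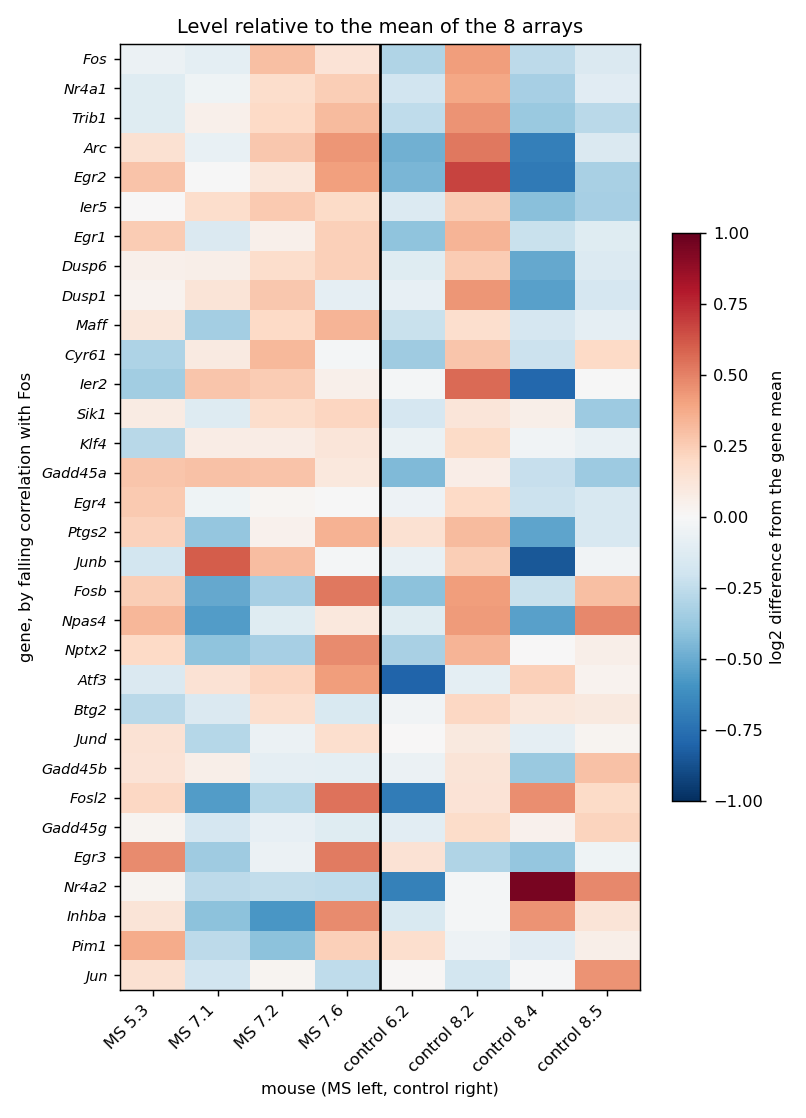
Level of each of the 32 tested genes (rows, ordered by falling correlation with Fos) in each mouse (columns, MS left and control right of the line) as the log2 difference from the mean of the gene over the 8 arrays, red above and blue below it. Control 8.2 is mostly red and control 8.4 and 6.2 mostly blue in the upper rows, while the lowest rows follow other orders.

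The spread between mice also differed. The SD was smaller among MS than among control mice for 10 of the 12 core genes and for 23 of the 32 genes (71.9%), against 61.5% of all tested genes. Without control 8.4 the counts were 8 of 12 and 20 of 32 (62.5%), against 44.9% of all genes. The median SD of the core was 0.19 in MS and 0.40 in control mice, or 0.33 in controls without 8.4, while over all genes it was 0.14 in MS and 0.16 in control mice, or 0.12 without 8.4. This is a description of 4 mice a group, and the difference in spread was not tested.

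To see which genes rose and fell together, each of 23417 genes with values on all arrays was correlated with Fos over the 8 mice, with an exact permutation test (two-sided, over 40320 orders of the arrays). After adjustment over all genes, 0 genes passed (0%), with a smallest adjusted p of 0.774. With 40320 orders an exact permutation p cannot fall below 2.48e-05. Over 23417 genes a gene could thus pass only if many genes had an exact p near that floor. The count of 0 therefore cannot decide whether single genes follow Fos. Before adjustment, 10 of the other 31 genes of the list had an exact p under 0.05, against 5.47% of all genes, and all 10 were positive, against 3.06% of all genes with a positive and 2.42% with a negative r. The median r with Fos was 0.55 over the 31 genes and 0.02 over all genes, and 26 of the 31 were positive, against 51.5% of all genes. The highest was Nr4a1, with r = 0.94 (exact permutation p = 0.000893, adjusted p = 0.817, Spearman's rho = 0.88 with exact p = 0.00724).

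Trib1 (r = 0.92, rho = 0.88), Arc (r = 0.89, rho = 0.95), Egr2 (r = 0.85, rho = 0.90), Ier5 (r = 0.80, rho = 0.88), Egr1 (r = 0.80, rho = 0.88) and Dusp6 (r = 0.80, rho = 0.88) came next, with exact permutation p values before adjustment between 0.00159 and 0.0198 for r and between 0.00114 and 0.00724 for rho. All of them had an adjusted p of 0.881. Dusp1 (r = 0.79, exact p = 0.0165), Maff (r = 0.75, exact p = 0.0403) and Cyr61 (r = 0.72, exact p = 0.0484) complete the 10. Control 8.2 and MS 7.2 were the mice farthest from the median of Fos, and with the 6 others r was 0.92 for Nr4a1, 0.95 for Arc and 0.91 for Egr2. It was 0.42 for Dusp1 and 0.37 for Cyr61, so that the relation of these 2 genes rests on those 2 mice. With each group centred on its own mean, r was 0.94 for Nr4a1, 0.90 for Arc and 0.84 for Egr2. Each of the 2 slide rows holds 4 arrays, too few for an r of its own. With each row centred on its mean, 12 of the 31 genes had an exact p under 0.05, and so had 5054 of the 23417 genes, against 1282 without centring.

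**Figure D4:**
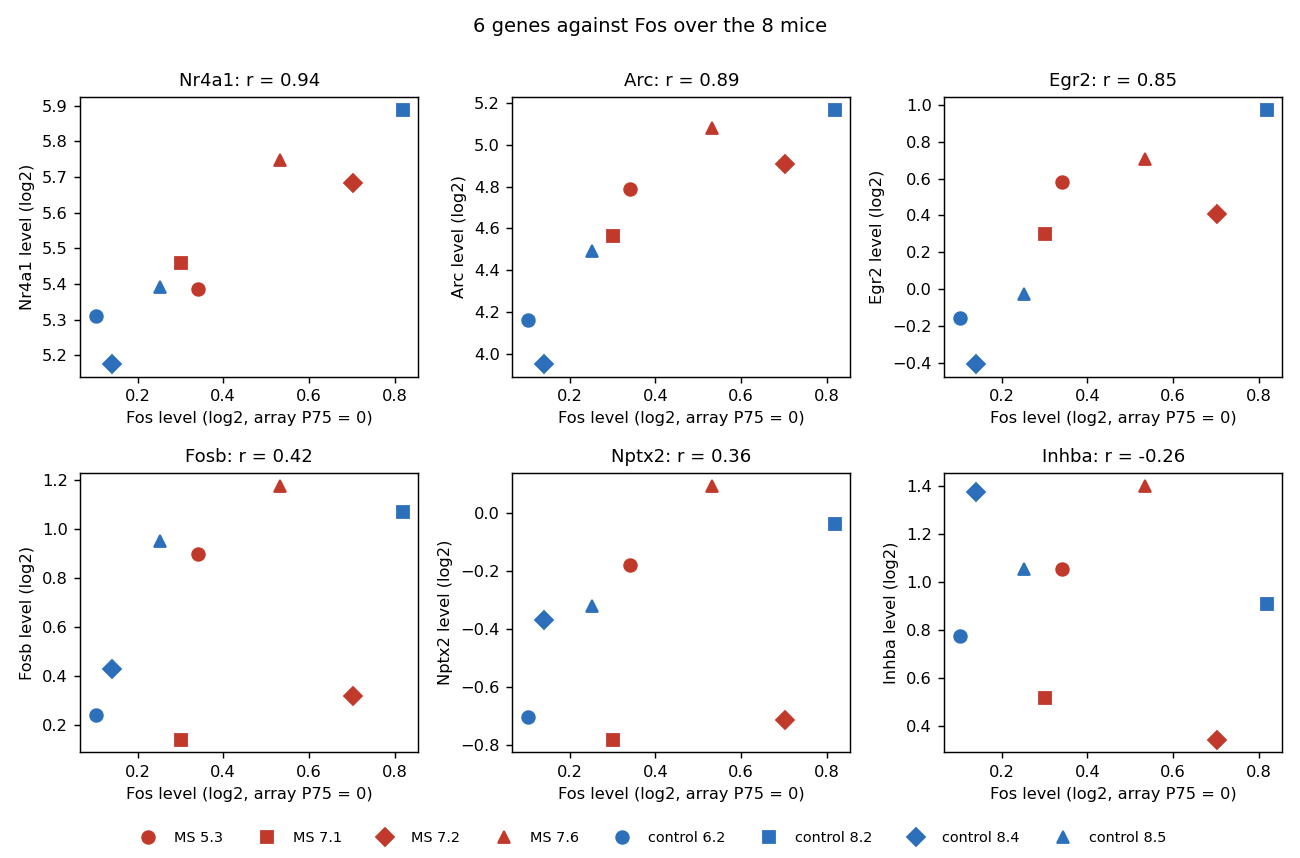
Level of 6 genes (vertical axes) against that of Fos (horizontal axis, both log2 relative to the 75th percentile of the array) in the 8 mice, MS in red and control in blue. Nr4a1 (r = 0.94), Arc (0.89) and Egr2 (0.85) rise with Fos across both groups. Fosb (0.42), Nptx2 (0.36) and Inhba (-0.26) have a lower r over the 8 mice. Without control 8.2 and MS 7.2 it is 0.70 for Fosb, 0.70 for Nptx2 and 0.30 for Inhba.

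Not every gene followed Fos. Fosb had an r of 0.42 with it, Npas4 0.40, Btg2 0.35, Nptx2 0.36 and Fosl2 0.17, and the lowest values were those of Nr4a2 (-0.23), Inhba (-0.26), Pim1 (-0.29) and Jun (-0.38). The exact permutation p of each of these was 0.286 or more. Without control 8.2 and MS 7.2, r with Fos was 0.70 for Fosb and for Nptx2, 0.47 for Fosl2, 0.35 for Npas4 and -0.61 for Btg2. It was then 0.34 for Pim1, 0.30 for Inhba, -0.21 for Nr4a2 and -0.36 for Jun. Which genes follow Fos thus depends in part on those mice. Some of the genes just named had a higher r with Fosb. With Fosb, r was 0.95 for Nptx2, 0.84 for Jund, 0.81 for Npas4, 0.76 for Fosl2, 0.74 for Egr1, 0.71 for Maff and 0.62 for Inhba. In all of these but Maff, MS 5.3 and MS 7.6 were above MS 7.1 and MS 7.2, as for Fosb itself. Fosb was chosen as the point of comparison after the values were seen, so these are given with no test. Egr1, with 0.80 to Fos and 0.74 to Fosb, was close to both.

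Over all 496 pairs of the 32 genes the median r was 0.33, and 39 pairs (7.86%) were at 0.8 or above and 0 at -0.8 or below. The 66 pairs of the rapid core had a median of 0.57 and 15 pairs (22.7%) at 0.8 or above. Over all pairs of tested genes the median was 0.02, with 2.23% at 0.8 or above and 1.83% at -0.8 or below. The closest pairs were Nr4a1 with Trib1 (0.98), Egr2 with Arc (0.97), Fosb with Nptx2 (0.95) and Fos with Nr4a1 (0.94). Another set was formed by Junb with Ier2 (0.90) and Dusp1 with Ier2 (0.88), and control 8.4 was the lowest mouse for each of these 3 genes. All these values share the same 8 arrays and the same scaling of each array, and the pairs are not independent. The median of the core was 0.64 with each group centred on its own mean, 0.47 without control 8.4 and 0.46 without control 8.2.

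**Figure D5:**
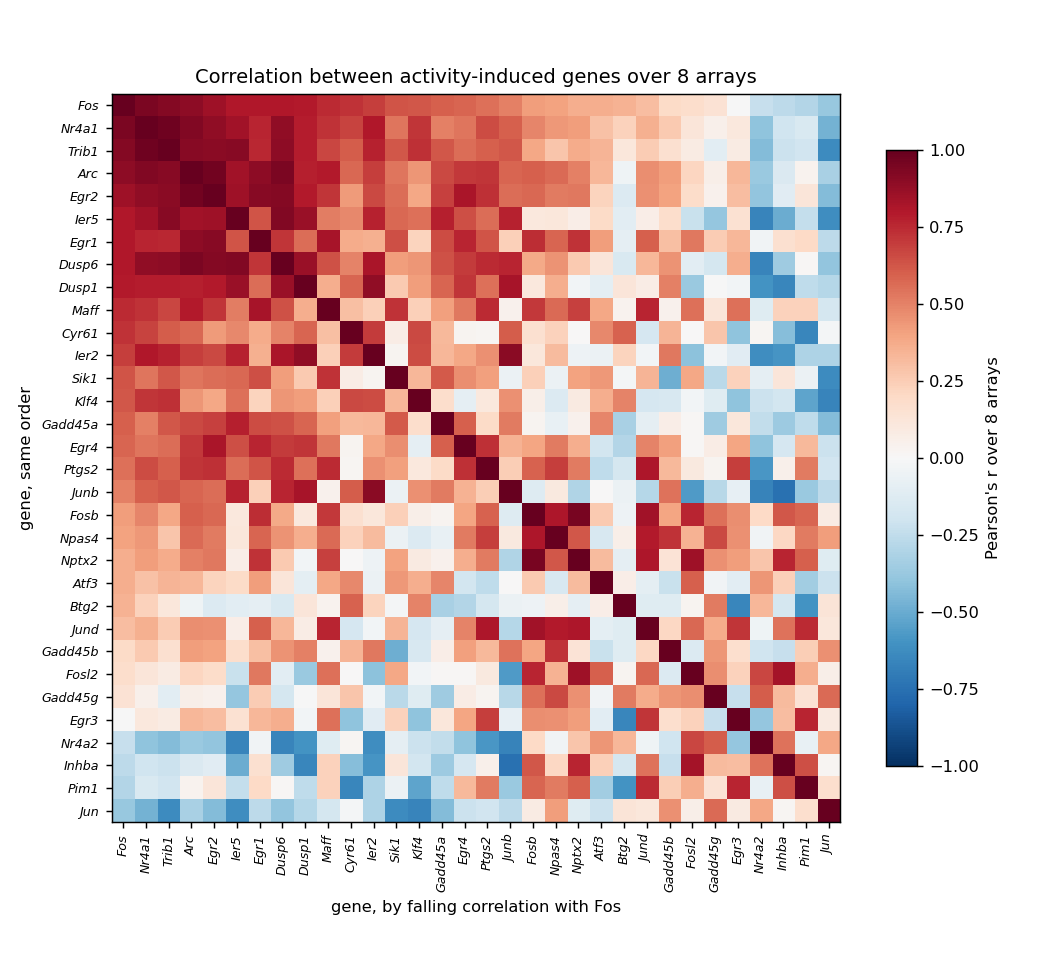
Pearson's r over the 8 arrays between each pair of the 32 tested genes, both axes in order of falling correlation with Fos, red positive and blue negative. The upper left block holds Fos, Nr4a1, Trib1, Arc, Egr2 and other genes with r of about 0.8 and above with Fos. Lower down, Nptx2, Npas4, Jund and Fosl2 each have an r of 0.76 or above with Fosb. Between one another their r is as low as 0.35 (Npas4 with Fosl2).

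The count of genes with an unadjusted limma p under 0.05 was 10 without control 8.2, and 1 to 3 without any other mouse. Without control 8.2, 25 of the 32 genes were higher in MS with a median difference of 0.24. Over all genes it was 53.5%, with a median of 0.01. Control 8.2 was the highest mouse for 11 of the 32 genes, so leaving it out lowers the control mean of those genes. The 10 genes were Fos, Egr1, Egr2, Arc, Nr4a1, Dusp1, Dusp6, Ier5, Trib1 and Gadd45a, and 0 passed after adjustment over all probes, where the smallest limma adjusted p was 0.896. Over all probes, 1537 of 34098 had an unadjusted p under 0.05 in that fit, against 815 with all 8 mice. Without MS 7.1, 25 of 32 genes were likewise higher in MS (median 0.15), against 54.7% of all genes (median 0.01). Without control 8.4 the median difference was 0.03, with 17 of 32 genes higher in MS, against 49.3% of all genes (median -0.0015). Leaving out the 3 arrays with raised olfactory bulb scores gave 16 of 32 and a median of 0.00, against 53.4% of all genes (median 0.01).

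Genes on either side of the immediate-early response were read in the same fit. Of 20 later activity-regulated genes, such as Bdnf, Homer1, Vgf and Nrn1, all 20 were tested, 16 were higher and 4 lower in MS (median 0.10), and 0 passed. The largest difference was that of Spry2, an inhibitor of receptor tyrosine kinase signalling, at 0.46 with an unadjusted limma p of 0.0145, which overlapped between the groups. Bdnf, the gene of a neurotrophin, differed by 0.18 and Homer1, the gene of a postsynaptic scaffold, by 0.13. The score of these 20 genes was 0.08, -0.04, 0.03 and 0.14 in MS 5.3, 7.1, 7.2 and 7.6, against -0.08, 0.11, -0.16 and -0.07 in control 6.2, 8.2, 8.4 and 8.5, with the highest mouse MS 7.6 and the lowest control 8.4. Of 29 genes of the kinases, calcium sensors and factors that act before the response, such as Creb1, Srf and Camk4, 21 were higher and 8 lower in MS (median 0.05), 0 passed, and their differences stayed between -0.07 and 0.20. Their score was 0.04, 0.05, 0.01 and 0.02 in MS mice and -0.01, 0.01, -0.12 and -0.01 in controls, with control 8.4 the lowest. In 1 of the 29, Mrtfb, all MS mice were above all controls, against 0.802% of all genes. As stated, 54.5% of all tested genes were higher in MS.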

How the data were processed

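RNA from the mPFC of 4 MS and 4 control mice was analysed, 1 array per mouse without pooling, with groups and animal numbers from the labels. Per the labels, 200 ng of total RNA were labelled with Cy3. The authors deposited 1 scanner file per array, with the intensity of each spot from Agilent Feature Extraction 10.10.1.1, which subtracts the background and leaves arrays unscaled against each other. Probe coordinates in the file headers are on mm9. A further table deposited by the authors gives their normalised log2 values, used here only as an alternative.

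Control spots (3671 per array) and outlier spots were left out, spots of a probe were averaged, and the array's 75th percentile was subtracted from the log2 signal. Probes entered the test if the software marked them well above background on each of the 4 arrays of MS, of control or of both (34098 of 55681 probes). The brightest tested probe stood for a gene, and a gene of the list was matched by its symbol in the files. The two-sided comparison of MS and control used lmFit and eBayes of limma 3.58.1 without covariates in R 4.3.3, adjusted by Benjamini-Hochberg over all probes at 0.05. The mice are separate animals, and their number limits the precision. All 8 arrays lay on 1 slide, with 2 arrays of each group in each of its 2 rows. Correlations with Fos were tested by exact permutation in Python 3.11.15 with numpy 2.4.6 and scipy 1.17.1, adjusted over all genes. Promoter sequences came from RefSeq (GRCm38.p6). Figures were drawn with matplotlib 3.10.9.

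Values for every mouse were given for the rapid core, for genes whose groups do not overlap, for the 3 largest differences in each direction and for the 3 largest SDs over the 8 arrays, which named 16 genes. The genes, the lists and the rapid core were chosen with earlier results of these data known. The fits were tested on simulated data. Alternatives covered background correction, scaling, filters, variance model, slide row, the number before the point, the choice of probe and leaving out each mouse.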

Additional observations from a re-analysis of the deposited data

Results flagged for a closer look

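In 5 of the 64 groups of 4 values looked at (32 genes in 2 groups of mice), 1 mouse stood apart by the Dixon ratio, its gap to the nearest mouse divided by the range of the group. Chance alone marks about 1 in 20 such groups. In MS mice, Nr4a2 was higher in MS 5.3 than in the other 3 (level 0.76, nearest 0.48, ratio 0.943). Klf4 was lower in MS 5.3 than in the other MS mice (0.06, nearest 0.41, ratio 0.869), and Gadd45a lower in MS 7.6 (-1.24, nearest -1.07, ratio 0.914). In control mice, mouse 8.2 was the highest for Klf4 (0.52, nearest 0.30, ratio 0.848) and for Trib1 (1.61, nearest 0.90, ratio 0.863).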

How the results depend on the processing

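The count of probes past the limma threshold was 0 in all 22 alternatives, and so was that of the genes of the list. The number of genes higher in MS was 16 to 25 of 32 (20 of 31 in the series table and 21 of 35 without the filter on dim probes). Leaving out each mouse gave 17 to 25 genes higher in MS, against 49.3% to 57.1% of all genes. It gave 7 to 11 genes with an exact p under 0.05 for the correlation with Fos (7 without MS 7.2 or without control 8.2). Over all 23417 genes that count ran from 671 without control 8.2 to 1774 without control 8.4, against 1282 with all 8 mice. The median r of the rapid core lay between 0.46 and 0.64. Gadd45a kept its direction in 22 of 22 alternatives (0.28 to 0.69) and an unadjusted p under 0.05 in all but the comparison within slide row 2. Among the 16 genes given for every mouse, signs turned as follows. Fosb was at 0.12, 0.065, 0.092 and 0.053 without MS 7.1, MS 7.2, control 8.2 and control 8.5. Fosl2 was at 0.14, 0.044, 0.10 and 0.013 without MS 7.1, MS 7.2, control 8.4 and control 8.5 and at 0.080 within slide row 1. Npas4 was at 0.047, 0.0030 and 0.020 without MS 7.1, control 8.2 and control 8.5 and at 0.052 within slide row 2. Ier2 was at -0.12 without control 8.4 and at -0.023 within slide row 1. Without the 3 arrays with raised olfactory bulb scores, an alternative chosen after seeing the data, Fos was at -0.012, Nr4a1 at -0.090, Dusp1 at -0.032, Ier2 at -0.22, Fosl2 at 0.073 and Nr4a2 at 0.19. Of the other 16 tested genes, 9 turned sign in at least 1 alternative (Jun, Jund, Klf4, Cyr61, Nptx2, Ptgs2, Trib1, Gadd45b and Pim1), among them Ptgs2 at -0.27 and Trib1 at -0.053 without those 3 arrays. The cause was not tested. With the number before the point as a random block (consensus correlation -0.22), 3837 probes had an unadjusted p under 0.05, against 815, as had 5 genes of the list (Dusp6, Ier5, Btg2, Gadd45a and Gadd45g), against 1, and 0 passed. No number occurs in both groups, and a negative correlation within numbers then narrows the error of the group difference. The larger counts are therefore no stronger evidence for a difference. No paired analysis was possible because MS and control mice share no animal number. The series table lacks Junb, so that alternative gave no value for it.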

Other observations

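Of 22599 genes outside the list that were well above background on all 8 arrays, the 5 closest to Fos over the 8 mice were Rasgrf1, the gene of a calcium-regulated activator of Ras, and Atg2b (r = 0.98 each), Cct2, Rasl2-9 and Clp1 (r = 0.96 each). The 5 most opposed to it were 2 unnamed long noncoding RNA probes (r = -0.98 and -0.97), Spa17 (r = -0.94), Gm9889 (r = -0.94) and Chat, the acetylcholine synthesis enzyme (r = -0.94). The exact permutation p of these 10 genes ranged from 4.96e-05 to 0.000942 before adjustment over 23417 genes and from 0.774 to 0.817 after it. None passed, and with 40320 orders of the arrays a few genes alone could not have passed.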
